A study of Mus musculus with 19 samples.

Results

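This account follows 10 genes of the tumour necrosis factor (TNF) receptor pathway through the homeostatic proliferation of CD8 T cells. The genes were the receptor genes Tnfrsf1a, Tnfrsf1b, Tnfrsf4, Tnfrsf9, Cd27 and Fas, the adaptor genes Traf1 and Traf2, and the inhibitor of apoptosis (IAP) genes Birc2 and Birc3. Every probe set that the probe-to-gene table assigns to one of them was taken, which gave 15 of the 12488 probe sets on the array and 10 of the 8251 genes with a probe set of their own. OT-I cells, CD8 T cells with 1 transgenic receptor for an ovalbumin peptide, had been transferred into B6 mice and later sorted from lymph node/spleen. The 19 arrays fall into 4 groups. The unirradiated group (n = 4) came from unirradiated B6 hosts at day 6. The 3 irradiated groups, all from irradiated B6 hosts, were titled day 5 (n = 8), day 40 (n = 4) and day 115 (n = 3). The samples titled day 5 are described as sorted at day 6, and for the first 2 of them the cell type is left unnamed. No unirradiated group was sorted at day 40 or day 115, so the irradiated host and the time since transfer cannot be told apart at those days. Sex, age and the number of animals are not stated, so p-values measure only the spread between samples, which may be technical.

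In a host emptied of lymphocytes, transferred T cells divide in response to self peptides and cytokines of the common gamma chain family, and CD8 cells then take on features of memory cells. Receptors of the TNF superfamily bind trimeric ligands. TNFR1, encoded by Tnfrsf1a, and Fas carry a death domain, whereas TNFR2 (Tnfrsf1b), OX40 (Tnfrsf4), CD137 (Tnfrsf9) and CD27 bind TRAF adaptors and act as costimulators of T cells. TRAF2 brings in the ubiquitin ligases cIAP1 (Birc2) and cIAP2 (Birc3), which link these receptors to NF-kappaB and hold back death signalling from TNFR1. TRAF1, which lacks the RING finger of TRAF2 and pairs with it, is an NF-kappaB target gene in lymphocytes.

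The data were 1 signal intensity per probe set and array, and the array medians lay between 49.6 and 53.7 signal units. Differences are in log2(signal + 16) ± standard error, folds are on the same scale of signal plus 16, and a probe set passed the test when its p, adjusted by Benjamini and Hochberg over all 8695 tested probe sets, was under 0.05 in limma. Of the 15 member probe sets, 12 were tested and stood for 9 genes. Fas had no tested probe set. By correlation the arrays formed 2 clusters that did not follow the groups. All of day 115 was in array cluster 1, together with arrays 1 to 3 of day 5 and arrays 1 and 2 of day 40. The whole unirradiated group was in array cluster 2, together with arrays 4 to 8 of day 5 and arrays 3 and 4 of day 40. Arrays of 1 group correlated at a median of 0.983 within a cluster and 0.930 between clusters. Every difference was therefore computed on groups alone, with the cluster as a term, and within a cluster where both groups had arrays in it. The day-115 and unirradiated groups share no cluster. In their comparison the term rests on the cluster gap within day 5 and day 40, taken to be the same in every group, which could not be checked. The markers of the sorted type, summed over 7 CD8 T cell probe sets, gave 8404 to 14457 signal units over all arrays, and the 6 probe sets of CD4 and regulatory T cells gave 293 to 379. Summed B cell marker signal (10 probe sets, 9 of them above the filter) was 1114 to 1276 in unirradiated arrays. At day 5 it was 2234 to 2826 in cluster 1 and 1326 to 1499 in cluster 2, at day 40 it was 2129 to 3286 and 1643 to 1745, and at day 115 it was 2669 to 4146. Plasma cell markers (5 probe sets, 4 above the filter) summed to 217 to 294 in unirradiated arrays and to 907 to 1216 at day 115. Of these, Txndc5 read 112 ± 23.98 in the unirradiated group and 860.2 ± 166 at day 115, and Jchain read 33.6 ± 4.91 and 87.3 ± 48.2. In the same order, Sdc1 read 36.5 ± 1.28 and 39.6 ± 5.01, and Xbp1 read 46.96 ± 15.5 and 34.8 ± 14.4. Myeloid markers (9 probe sets, 5 above the filter) summed to 363 to 525 over all arrays. Erythroid markers (4 probe sets) summed to 241 to 385 in unirradiated, 272 to 2552 in day-5, 407 to 1022 in day-40 and 496 to 1274 in day-115 arrays. From unirradiated to day-115 arrays, NK cell sums were 40.8 to 51.8 and 58.9 to 64.7, and dendritic cell sums 343 to 415 and 424 to 498. The sums of neutrophil and of stroma and vessel markers overlapped between these 2 groups.

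The promoters of Tnfrsf1b and Traf1 are shown because these were the members that rose at day 115 over both day 5 and the unirradiated group on groups alone. The windows are the 250 bases before the RefSeq transcription start on build GRCm38.p6. Tnfrsf1b lies on the minus strand (chr4:145246871-145247120), and the capitals mark a STAT-type match and 2 GC boxes. Traf1 lies on the minus strand as well (chr2:34961773-34962022), and the capitals mark an ETS-type match.
Tnfrsf1b: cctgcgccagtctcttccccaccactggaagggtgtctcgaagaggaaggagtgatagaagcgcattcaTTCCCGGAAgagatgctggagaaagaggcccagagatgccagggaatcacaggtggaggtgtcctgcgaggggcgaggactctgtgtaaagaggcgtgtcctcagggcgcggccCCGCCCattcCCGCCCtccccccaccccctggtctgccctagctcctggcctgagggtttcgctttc
Traf1: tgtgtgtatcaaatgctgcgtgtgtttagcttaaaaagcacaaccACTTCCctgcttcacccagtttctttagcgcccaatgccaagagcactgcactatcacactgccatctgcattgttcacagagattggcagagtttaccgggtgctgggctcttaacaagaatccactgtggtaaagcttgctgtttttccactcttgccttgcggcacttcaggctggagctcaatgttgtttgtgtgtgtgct
In all, 5 motifs were searched on both strands, and 2 matches of 1 motif could overlap. The STAT motif TTCNNNGAA was in 7.02% of all 32851 windows in the table, the GC box GGGCGG in 32.7%, the ETS motif GGAAGT in 19.7%, the AP-1 motif TGANTCA in 6.75% and the NF-kappaB motif in 9.55%. The 2 windows printed shared no motif among the 5. All 10 members had at least 1 window, 12 in all, and among them the NF-kappaB motif was found in the second Tnfrsf9 window alone. These matches describe letters in the windows and not sites bound by a factor.

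**Figure D1:**
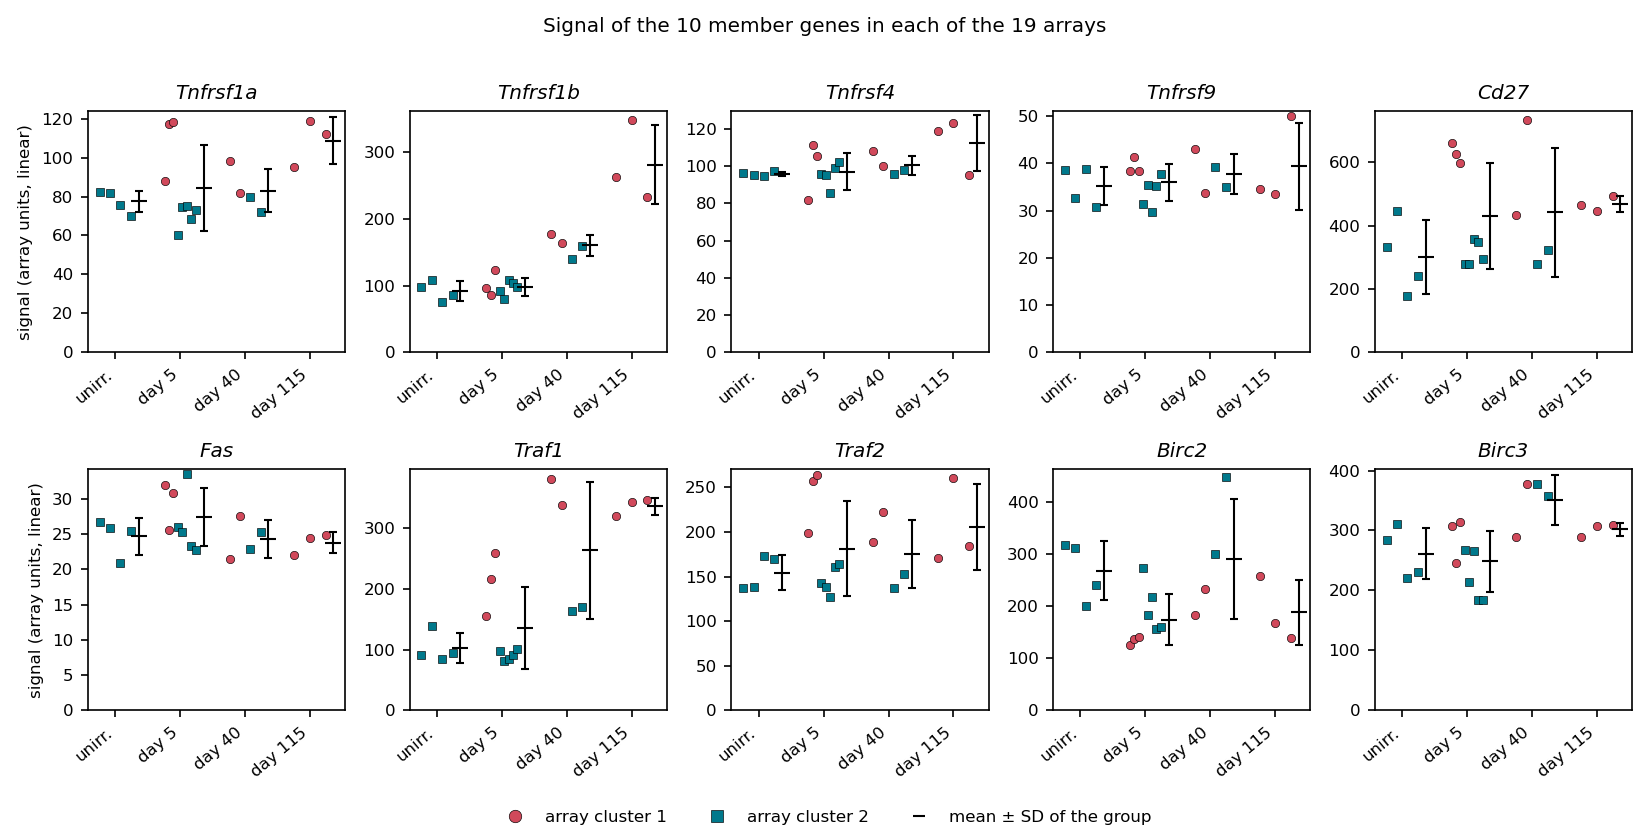
Signal (linear array units, from 0) of the 10 member genes in each array, by group, for the probe set of highest signal outside the controls. Circles are array cluster 1, squares are array cluster 2, and the black bars give the mean ± SD of a group. Tnfrsf1b was higher in all 4 day-40 and all 3 day-115 arrays than in any day-5 or unirradiated array. Within day 5 and within day 40, the clusters had separate ranges in Traf1, Cd27, Tnfrsf1a, Traf2 and Birc2. Cluster 1 was the lower one in Birc2 and the higher one in the others.

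Among the receptors, Tnfrsf1b showed the clearest difference. Its probe set 94928_at had a signal of 97.8, 109, 75.9 and 85.1 in the unirradiated arrays. At day 5 the 8 arrays ran from 80.5 through a median of 97.03 to 123. The day-5 and unirradiated ranges thus lay over each other, and the difference was 0.08 ± 0.12 (limma, adjusted p = 0.753). The day-40 arrays read 177, 164, 139.8 and 159.6, and the day-115 arrays 263, 347 and 232. No day-40 array was as low as the highest day-5 or unirradiated array, and no day-115 array was as low as the highest day-40 array. The unirradiated mean was 91.9 ± 14.4 (SD, n = 4) and the day-5 mean 98.3 ± 13.3 (n = 8), against 160.0 ± 15.3 for day 40 (n = 4) and 281 ± 59.4 for day 115 (n = 3).

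Tnfrsf1b rose 1.64-fold at day 40 over the unirradiated group, by 0.71 ± 0.14 (limma, adjusted p = 0.0122). At day 115 it rose 2.73-fold, by 1.45 ± 0.15 (adjusted p = 8.86e-06). Over day 5, with which these comparisons share the day-40 and day-115 arrays, it rose by 0.63 ± 0.12 at day 40 (adjusted p = 0.0119) and by 1.37 ± 0.13 at day 115 (adjusted p = 5.57e-06). In the order of the levels, the unirradiated and day-5 groups did not differ beyond their spread, and the day-40 group stood above both. The step from day 40 to day 115, 0.74 ± 0.15, did not pass the test (limma, adjusted p = 0.0639), although the ranges did not overlap. It did pass with a pseudocount of 64, without the filter on low signals, or after quantile normalisation or median centring, with adjusted p between 0.0318 and 0.0461. It also passed without day-40 array 1 (adjusted p = 0.0358) and without day-115 array 3 (adjusted p = 0.0328).

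The Tnfrsf1b differences were nearly the same size with the cluster term. They were 0.66 ± 0.14 for day 40 (limma, adjusted p = 0.0138) and 1.35 ± 0.18 for day 115 (adjusted p = 0.000213) against the unirradiated group. For day 115 no array of the 2 groups shares a cluster, so the term there uses the gap seen at day 5 and day 40. Within array cluster 2, day 40 exceeded the unirradiated group by 0.63 ± 0.13 (adjusted p = 0.0259) and day 5 by 0.57 ± 0.13 (adjusted p = 0.0276). Within array cluster 1, day 115 exceeded day 5 by 1.33 (adjusted p = 0.0190), whereas day 40 exceeded it by 0.67 and did not pass the test (adjusted p = 0.452). Leaving out unirradiated array 3 ended the call of day 40 over the unirradiated group (adjusted p = 0.0613), and leaving out day-40 array 4 ended that of day 40 over day 5 (adjusted p = 0.0566). Every array could be left out of the day-115 comparisons with day 5 and with the unirradiated group without loss of the call. Between the clusters of 1 group, Tnfrsf1b differed by 0.06 at day 5 and by 0.17 at day 40.

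Of the 9 tested B cell markers, 4 rose at day 115 over the unirradiated group on groups alone, where 27.9% of all probe sets were called, and 1, Ighm, with the cluster term, where 4.42% were. The 4 included the immunoglobulin heavy chain gene Ighm, at 499.6 ± 41.6 in the unirradiated group and 1944 ± 319 at day 115. The B cell receptor gene Cd79a, at 136 ± 11.3 and 156 ± 10.7, and the B lineage factor gene Pax5, at 98.6 ± 4.48 and 108 ± 6.10, did not pass. In array cluster 2 the B cell sums were 1114 to 1276 in unirradiated, 1326 to 1499 in day-5 and 1643 to 1745 in day-40 arrays. Mean Tnfrsf1b signals there were 91.9, 96.1 and 149.7. In array cluster 1 the sums were 2234 to 2826 at day 5, 2129 to 3286 at day 40 and 2669 to 4146 at day 115. Mean Tnfrsf1b signals there were 101.8, 170.4 and 280.7. Plasma cell sums, in the same order, were 217 to 294, 222 to 277 and 312 to 372 in cluster 2. In cluster 1 they were 316 to 404, 529 to 845 and 907 to 1216. Of the 4 tested plasma cell markers, Txndc5 and Jchain rose at day 115 over the unirradiated group (limma, adjusted p = 0.000267 and 0.00463). Once the array cluster entered the fit, these rises were still called (adjusted p = 0.00182 and 0.0104). Xbp1 and Sdc1 were called in neither fit. The day-115 arrays were high in B cell sum, plasma cell sum and Tnfrsf1b. The part of B cells or plasma cells in the late signal was not tested, and in sorted bulk cells fewer cells of a type and less RNA per cell cannot be told apart.

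**Figure D2:**
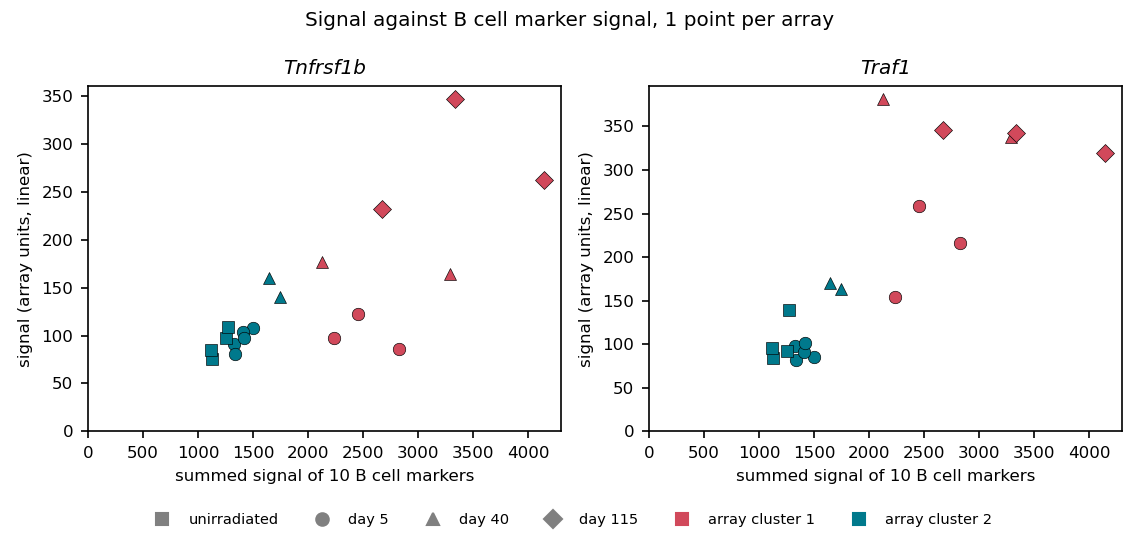
Signal of Tnfrsf1b (left) and Traf1 (right) against the summed signal of 10 B cell marker probe sets, both in linear array units, with 1 point per array. Shapes give the group and colours the array cluster. The 3 day-5 arrays of cluster 1 lie at sums of 2234 to 2826, with Tnfrsf1b signals of 85.7 to 123 and Traf1 signals of 155 to 258. The 3 day-115 arrays lie at sums of 2669 to 4146, with Tnfrsf1b signals of 232 to 347 and Traf1 signals of 319.6 to 345.

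The other TNF receptor, Tnfrsf1a, read 77.5 ± 5.62 in the unirradiated group, 84.3 ± 21.9 at day 5, 83.0 ± 10.9 at day 40 and 109 ± 12.1 at day 115 (probe set 92793_at). The 3 day-115 arrays, at 95.2, 119 and 112, lay above the unirradiated range of 70.2 to 82.1. The difference of 0.41 ± 0.17 did not pass the test (limma, adjusted p = 0.0733) and was 0.01 ± 0.14 with the cluster term. Within day 5, the cluster 1 arrays read 88.2 to 118 and the cluster 2 arrays 60.4 to 75.1, a log2 gap of 0.51. Its dim second probe set, 161194_r_at, stayed between 20.6 and 39.9 in every array and passed no test. For the death domain receptor TNFR1, therefore, no change was called in any of the 6 comparisons. Day 115 over day 5, 0.34 ± 0.15 (adjusted p = 0.130), passed only without day-5 array 2 or 3 (adjusted p = 0.0489 and 0.0451).

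CD27, the receptor for CD70 and a costimulator of naive and memory T cells, was measured by 2 probe sets made from the same transcript record. The brighter, 102282_g_at, read 331, 448, 178 and 242 in the unirradiated arrays and 465, 447 and 495 at day 115. These ranges overlapped between 447 and 448, and the difference of 0.69 ± 0.37 did not pass the test (limma, adjusted p = 0.161). The other, 102281_at, read 146, 152, 117 and 144 in the unirradiated arrays and 288, 414 and 266 at day 115. It rose 2.15-fold, by 1.10 ± 0.32 (adjusted p = 0.0174). Both probe sets lost most of that difference with the cluster term, at -0.25 ± 0.28 and 0.18 ± 0.19 (adjusted p = 0.614 and 0.587), and the call was also lost without day-115 array 2 (adjusted p = 0.0758). The 2 probe sets of 1 gene thus gave different calls. Over day 5, the day-115 difference of 102281_at, 0.69 ± 0.28 (adjusted p = 0.101), passed when day-5 array 1 was left out (adjusted p = 0.0435).

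Within a time point, Cd27 followed the array cluster. At day 5, 102282_g_at read 599 to 659.8 in the 3 cluster 1 arrays and 279 to 357 in the 5 cluster 2 arrays, a log2 gap of 0.98. At day 40 the values were 433 and 734 against 279 and 322, a gap of 0.88, and 102281_at showed gaps of 0.95 and 0.85. These gaps carry no test, since the clusters were made from the same arrays. Within array cluster 2, where unirradiated, day-5 and day-40 arrays stand side by side, the differences of 102282_g_at from the unirradiated group were 0.12 ± 0.21 at day 5 and 0.08 ± 0.27 at day 40 (adjusted p = 0.860 and 0.945). Within array cluster 1, day 115 minus day 5 was -0.41 ± 0.21 in 102282_g_at and 0.10 ± 0.20 in 102281_at (limma, adjusted p = 0.296 and 0.809).

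OX40 and CD137, which T cells induce on activation through the antigen receptor, were flat. Tnfrsf4 (102681_at) read 95.7 ± 1.19, 96.9 ± 9.85, 100.3 ± 5.25 and 112 ± 14.9 in the unirradiated, day-5, day-40 and day-115 groups. Its widest difference, 0.19 ± 0.10 at day 115 over the unirradiated group, did not pass the test (limma, adjusted p = 0.176). Tnfrsf9 (97683_at) read 35.2 ± 4.08, 35.96 ± 3.85, 37.8 ± 4.27 and 39.4 ± 9.26, and its differences ran from 0.02 to 0.10 in the 6 comparisons, with none past the test. Its second probe set, 103509_at, lay under the filter, at 11.1 to 20.9. Both genes were dim enough that a pseudocount of 16 shrinks their differences.

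Fas, the death receptor for Fas ligand, could only be described. Its probe set 102921_s_at, under the filter, read 24.7 ± 2.61 in the unirradiated group, 27.4 ± 4.10 at day 5, 24.3 ± 2.70 at day 40 and 23.8 ± 1.55 at day 115. A second probe set assigned to Fas is 1 of the 66 controls of the array, which were left out of the fit. It read 74.6 ± 9.18, 64.8 ± 7.52, 66.8 ± 2.09 and 72.1 ± 12.9 in the same order, so that the group means of neither probe set spanned as much as the range of its day-5 arrays. When the controls were fitted as well, an alternative chosen after seeing the data, the control probe set differed from the unirradiated group by -0.16 at day 5 (limma, adjusted p = 0.420).

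Traf1, the adaptor that pairs with TRAF2, rose at day 115 on groups alone. Its probe set 94186_at read 91.8, 139, 83.85 and 95.1 in the unirradiated arrays. At day 5 it read 155, 216 and 258 in array cluster 1 and 81.6 to 101 in array cluster 2. At day 40 it read 381 and 338 in cluster 1 and 163 and 169.7 in cluster 2, and at day 115, all in cluster 1, 319.6, 343 and 345. Both factors can be read from these values: within either cluster every day-40 array exceeded every day-5 array, and within either day every cluster 1 array exceeded every cluster 2 array. The log2 gap between the clusters was 1.05 at day 5 and 1.04 at day 40.

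On groups alone, Traf1 rose 3.01-fold at day 115 over the unirradiated group, by 1.59 ± 0.35 (limma, adjusted p = 0.00477), and by 1.32 ± 0.31 over day 5 (adjusted p = 0.00977). The day-40 difference from the unirradiated group, 1.17 ± 0.32, did not pass the test (adjusted p = 0.0806), nor did that from day 5, 0.90 ± 0.28 (adjusted p = 0.126; 0.0488 without day-5 array 3). With the cluster term, the day-115 difference from the unirradiated group fell to 0.55 ± 0.19 and lost its call (adjusted p = 0.104). The term took away spread as well as size, and the day-40 differences then passed the test, at 0.64 ± 0.15 over the unirradiated group (adjusted p = 0.0266) and 0.76 ± 0.12 over day 5 (adjusted p = 0.00114). Day 115 over day 5 held with the term at 0.67 ± 0.15 (adjusted p = 0.00853). Between day 115 and day 40 it was -0.10 ± 0.16 with the term and 0.43 ± 0.35 without (adjusted p = 0.853 and 0.561).

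Within array cluster 2, which holds none of the day-115 arrays, Traf1 at day 40 exceeded the unirradiated group by 0.65 ± 0.15 (limma, adjusted p = 0.0404) and day 5 by 0.77 ± 0.15 (adjusted p = 0.0135). Within array cluster 1, day 115 exceeded day 5 by 0.67 without passing the test (adjusted p = 0.113). Both the B cell sums and Traf1 were higher in cluster 1 than in cluster 2, with sums of 2234 to 2826 against 1326 to 1499 at day 5. Between days in cluster 2, the sums reached 1643 to 1745 at day 40, and mean Traf1 went from 91.4 to 166.6. In cluster 1 the sums were 2129 to 3286 at day 40 and 2669 to 4146 at day 115. Mean Traf1 there was 209.7 at day 5, 359.7 at day 40 and 335.9 at day 115. The part of B cells was not tested. For Traf1, then, the order of the group means was unirradiated (103 ± 24.9), day 5 (136 ± 67.5), day 40 (263 ± 113) and day 115 (336 ± 14.2), and the first pair and the last pair did not differ beyond their spread.

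Traf2, the adaptor that carries cIAP1 and cIAP2 to the receptors, was not called in any comparison. Its probe set 98416_at read 154 ± 19.5 in the unirradiated group, 181 ± 53.3 at day 5, 175 ± 38.3 at day 40 and 205 ± 48.2 at day 115. The ranges of all groups overlapped those of the unirradiated arrays, 137 to 173. Its day-115 difference of 0.36 ± 0.23 (limma, adjusted p = 0.248) was -0.22 ± 0.18 with the cluster term. Within day 5 the cluster 1 arrays, at 199 to 264, lay above the cluster 2 arrays, at 127 to 164. Traf1 and Traf2 were thus alike in the direction of the gap between the clusters. In Traf2 the log2 gap was 0.65 at day 5 and 0.46 at day 40, against 1.05 and 1.04 in Traf1. The late rise was called in Traf1. Whether the late differences of the 2 genes differed from each other was not tested.

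**Figure D3:**
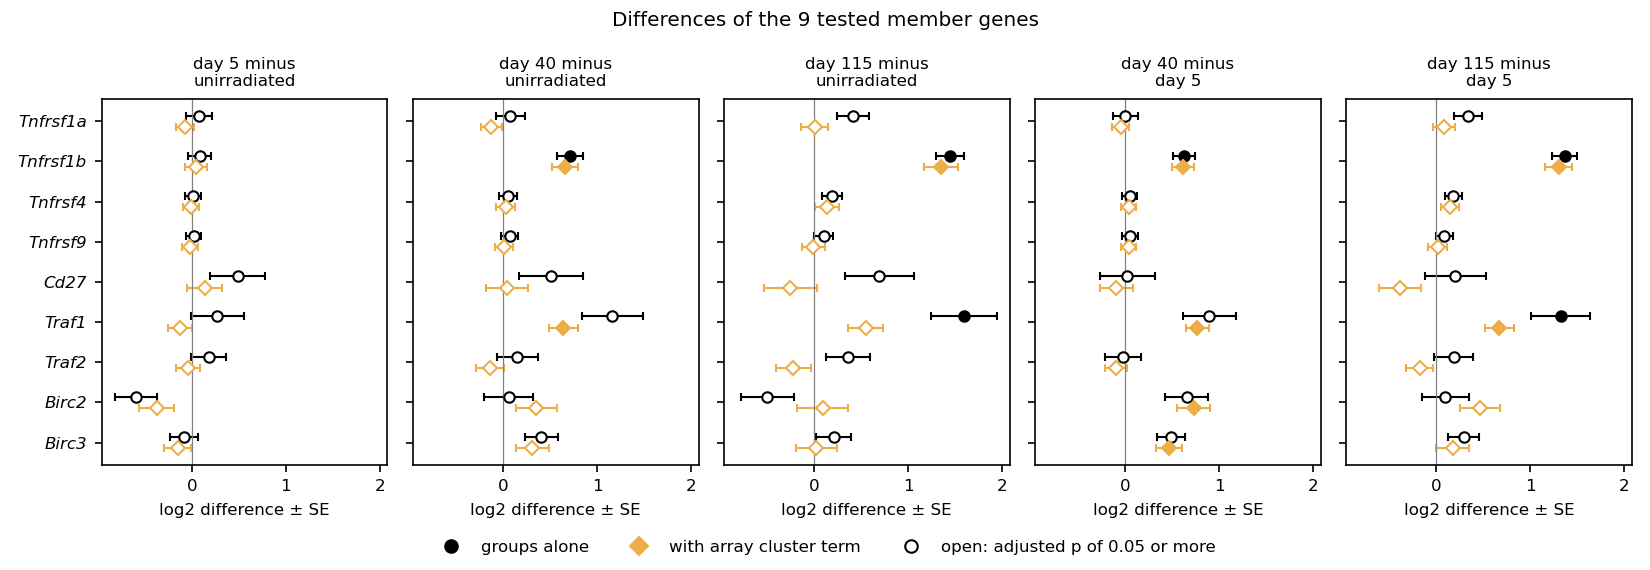
Log2 differences ± SE of the 9 tested member genes in 5 comparisons, from groups alone (black circles) and with the array cluster as a term (yellow diamonds). Filled symbols have an adjusted p under 0.05 in limma. Tnfrsf1b is filled in both fits in 4 comparisons, Traf1 gains a call with the term at day 40 and loses one at day 115 against the unirradiated group, and Birc2, Birc3 and Traf1 are filled with the term alone at day 40 against day 5.

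The 2 IAP genes are adjacent entries on chromosome 9 in the RefSeq gene table, which lists each symbol among the older names of the other, so the names used here rest on the array's probe table. Birc2, which encodes cIAP1, had the lowest group mean at day 5. Its probe set 102734_at read 318, 311, 201 and 241 in the unirradiated arrays. At day 5 it ran from 124 through a median of 158 to 273, and at day 40 it read 183, 232, 299.9 and 446. The day-115 arrays read 258, 167 and 138. Every group overlapped every other, and the largest difference on groups alone was 0.65 ± 0.23 between day 40 and day 5 (limma, adjusted p = 0.177). In the fit with the cluster that difference passed, at 0.73 ± 0.17 (adjusted p = 0.0156), and within array cluster 2 it was 0.87 ± 0.23 and just missed the threshold (adjusted p = 0.0504).

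In 102734_at the cluster 1 arrays were the lower ones on both days, 124 to 141 against 156 to 273 at day 5 and 183 to 232 against 299.9 to 446 at day 40. The second probe set, 161883_f_at, did not follow: it read 48.5 ± 1.35, 48.4 ± 5.84, 43.9 ± 1.91 and 37.9 ± 9.59 in the 4 groups, and at day 40 minus day 5 it differed by -0.10 ± 0.08 (limma, adjusted p = 0.771). Its day-115 difference from the unirradiated group, -0.28 ± 0.11, missed the threshold (adjusted p = 0.0565) and passed it after quantile normalisation (adjusted p = 0.0394) or median centring (adjusted p = 0.0415), and without day-115 array 1 or 3 (adjusted p = 0.0377 and 0.0406). Its day-115 difference from day 5, -0.27 ± 0.09, behaved alike (adjusted p = 0.0599, and 0.0352 to 0.0465 after quantile normalisation or without day-5 array 1 or day-115 array 1 or 3). The probe sets of Birc2 therefore differed in where they varied, and neither was called on groups alone.

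Birc3, which encodes cIAP2, had its highest group mean at day 40. Probe set 160645_at read 283, 311, 221 and 230.0 in the unirradiated arrays and 289, 377, 377 and 358 at day 40. The day-5 arrays ran from 184 through a median of 256 to 315, and the day-115 arrays read 289, 308 and 308. The day-115 arrays lay inside the range of the unirradiated arrays. Day 40 exceeded day 5 by 0.49 ± 0.15 without passing the test (limma, adjusted p = 0.122), and it passed when the cluster was in the fit, at 0.46 ± 0.14 (adjusted p = 0.0464), and within array cluster 2, at 0.70 ± 0.18 (adjusted p = 0.0399). In array cluster 1 the same difference was 0.19 (adjusted p = 0.875), and whether the clusters differ in it was not tested.

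Counts over the members are read against all 8695 tested probe sets. At day 5 against the unirradiated group, 0 of the 12 member probe sets passed the limma test, where 0.794% of all probe sets did, and at an unadjusted p under 0.05 there was 1 member gene, Birc2. At day 40 against the unirradiated group it was 1 member probe set, Tnfrsf1b, against 1.5%. At day 115 it was 3, for Tnfrsf1b, Traf1 and Cd27, or 25.0% of the members against 27.9% of all, a share near the background. Day 40 against day 5 gave 1 (background 1.25%), Tnfrsf1b, and day 115 against day 5 gave 2 (13.9%), Tnfrsf1b and Traf1. Day 115 against day 40 gave 0, where 0.092% of all probe sets passed, and 1 member gene, Tnfrsf1b, at an unadjusted p under 0.05. All members that passed had risen.

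With the cluster term, the background at day 115 against the unirradiated group shrank to 4.42%, and Tnfrsf1b was the 1 member left. The term gave 0 members for day 5 over the unirradiated group (background 1.61%, and 0 members at an unadjusted p under 0.05), and 2 for day 40 over it (2.23%), Tnfrsf1b and Traf1. It gave 4 for day 40 over day 5 (7.48%), which were Tnfrsf1b, Traf1, Birc2 and Birc3, or 33.3% of the member probe sets. Day 115 over day 5 kept Tnfrsf1b and Traf1 (14.3%), and day 115 over day 40 had 0 (0.196%) and Tnfrsf1b at an unadjusted p under 0.05. Within array cluster 1, 0 members passed for day 40 over day 5, where 0.0115% of all probe sets did and 4 member genes had an unadjusted p under 0.05, and 1, Tnfrsf1b, passed for day 115 over day 5 (1.28%). Within array cluster 2, 2 members passed for day 40 over the unirradiated group (3.07%), Tnfrsf1b and Traf1, and 3 for day 40 over day 5 (5.66%), which were these and Birc3.

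Ranges that did not overlap were counted in the same way. For day 5 against the unirradiated group, 0 member probe sets had separate ranges (3.46% of all). For day 40 against it there were 3 (13.8%), namely Tnfrsf1b, Traf1 and the dim Birc2 probe set. For day 115 against it there were 5, or 41.7% against a background of 42.7%, which is no more than the background. Day 40 against day 5 gave 1 (2.23%), Tnfrsf1b, day 115 against day 5 gave 2 (10.9%), Tnfrsf1b and Traf1, and day 115 against day 40 gave 1 (8.4%), Tnfrsf1b. The median difference of the 9 genes at day 115 over the unirradiated group was 0.36, with 8 of 9 above 0. The median of all tested probe sets was 0.01, with 51.8% above 0. With the cluster term the members' median was 0.02, with 6 of 9 above 0, and that of all was -0.05, with 43.0% above 0. The comparisons share arrays, so these counts are not independent of each other.

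The genes most like Tnfrsf1b over the 19 arrays were Prss12 (Pearson r = 0.943), which encodes a secreted serine protease, Pfkp (0.926), the platelet-type phosphofructokinase of glycolysis, and Kcnj8 (0.924), a potassium channel subunit. With the cluster effect removed, r was 0.940, 0.926 and 0.916. Pfkp read 177 on average in the unirradiated group and 433 at day 115. For Traf1 the most similar genes were Sec31a (r = 0.962), a coat protein of transport vesicles, Flii (0.958), a gelsolin relative, and Rad52 (0.952), a DNA repair gene. Here r was 0.867, 0.827 and 0.826 without the cluster effect. These correlations are descriptions across 19 arrays that share groups and clusters.

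The rest of the pathway is given by gene lists. Of 20 other receptors of the superfamily, 9 had a probe set and 6 were tested, and none passed in any of the 6 comparisons on groups alone or with the term. In both limma fits, 0 of the 6 had an unadjusted p under 0.05. GITR, the costimulatory receptor encoded by Tnfrsf18, read 321 ± 41.5 in the unirradiated group and 442 ± 226 at day 115, and the lymphotoxin beta receptor gene Ltbr read 76.7 ± 3.50 and 74.1 ± 10.03. Among the receptors tested, inside and outside the 6 members, a late rise held with the cluster term in Tnfrsf1b alone.

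Of 18 ligand genes, 8 were tested, and 1, Fasl, passed. Fas ligand is a death ligand that cytotoxic T cells carry. Its gene read 28.7 ± 2.69 in the unirradiated group, 28.3 ± 4.93 at day 5, 112 ± 19.4 at day 40 and 95.5 ± 3.71 at day 115. It rose by 1.51 ± 0.10 at day 40 (limma, adjusted p = 9.53e-08) and by 1.32 ± 0.11 at day 115 (adjusted p = 1.14e-06) over the unirradiated group, and by 1.44 and 1.19 with the cluster term. A ligand of both TNF receptors, Tnf, read 64.2 ± 7.06, 66.1 ± 9.34, 60.02 ± 3.99 and 54.1 ± 4.10 in the 4 groups. The lymphotoxin alpha gene Lta read 91.2 ± 20.7, 79.1 ± 8.485, 82.6 ± 10.45 and 104.6 ± 5.90. The CD27 ligand gene Cd70 read 84.2 ± 15.3, 89.9 ± 12.6, 91.5 ± 12.1 and 101 ± 18.98. None of these passed a test.

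Of 24 other adaptor and ubiquitin-editing genes, 12 were tested. At day 115 over the unirradiated group 3 rose and 4 fell on groups alone, and 0 passed with the cluster term, in which 2 had an unadjusted p under 0.05. Of all probe sets, 27.9% were called there on groups alone and 4.42% with the term. Traf6, an adaptor of interleukin 1 and Toll-like receptors, changed by -2.09 ± 0.56 (limma, adjusted p = 0.0127), and by -0.35 once the cluster entered the model. Rbck1, a subunit of the linear ubiquitin ligase that acts with cIAPs at TNFR1, rose by 1.72 ± 0.38 (adjusted p = 0.00487; 0.53 with the term). Tank, a TRAF-binding kinase adaptor, changed by -1.18 ± 0.23 (adjusted p = 0.00247; -0.60 with the term). Tnip1 rose by 0.87 ± 0.23 (adjusted p = 0.01185; 0.31 with the term). At day 40 over the unirradiated group 0 of the 12 passed in limma, where 1.5% of all did, and 4 had an unadjusted p under 0.05.

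Of 9 other IAP genes and IAP antagonists, 3 were tested. At day 115 over the unirradiated group all 3 fell on groups alone, where 27.9% of all probe sets were called. With the cluster term 1, Htra2, was called, where 4.42% of all were. Birc6, a giant ubiquitin ligase with an IAP domain, changed by -1.54 ± 0.30 (limma, adjusted p = 0.00247; -0.97 and adjusted p = 0.0715 with the term). Htra2, a mitochondrial protease that antagonises IAPs once released, changed by -0.98 ± 0.17 (adjusted p = 0.00139; -0.80 and adjusted p = 0.0224 with the term). Xiap, the direct caspase inhibitor, changed by -0.42 ± 0.12 (adjusted p = 0.0162; -0.51 and adjusted p = 0.0554 with the term). At day 40 Birc6 had already fallen, with a log2 difference of -1.31 ± 0.28 (adjusted p = 0.0214; -1.025 and adjusted p = 0.0266 with the term). At day 115 over day 5, Xiap changed by -0.48 ± 0.11 and Htra2 by -0.93 ± 0.15 (limma, adjusted p = 0.00753 and 0.00114). Both passed with the term (adjusted p = 0.00742 and 0.00244). Birc6, at -0.82 ± 0.27 (adjusted p = 0.0475), did not (adjusted p = 0.200). Of all probe sets, 13.9% were called there on groups alone and 14.3% with the term. Birc2 and Birc3 differed from the unirradiated group by 0.06 ± 0.26 and 0.41 ± 0.18 at day 40 and by -0.50 ± 0.28 and 0.21 ± 0.19 at day 115, none of them called. Of 13 caspases and death regulators, 10 were tested, and at day 115 over the unirradiated group Daxx rose by 0.61 ± 0.22 and Casp6 changed by -0.39 ± 0.13 (adjusted p = 0.0466 and 0.0370). Neither call held with the term.

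Of 12 NF-kappaB genes, 9 were tested. At day 40 over the unirradiated group, the kinase subunit genes Ikbkg and Ikbkb rose by 0.70 ± 0.16 and 0.63 ± 0.13 (limma, adjusted p = 0.0268 and 0.0188) and passed with the term as well. Of all probe sets, 1.5% were called in that comparison on groups alone and 2.23% with the term. At day 115, 4 rose and 1 fell on groups alone, where 27.9% of all were called. With the term 1 rose and 1 fell, where 4.42% were called. Relb, the partner of the non-canonical subunit, read 94.4 ± 3.99 in the unirradiated group and 221 ± 68.4 at day 115, a rise of 1.07 ± 0.18 (adjusted p = 0.00121; 0.67 and adjusted p = 0.0310 with the term). Nfkbia, the inhibitor that NF-kappaB itself induces, fell from 407 ± 48.2 to 63.1 ± 15.6, a log2 difference of -2.43 ± 0.44 (adjusted p = 0.00158), which was -1.07 when the term was included (adjusted p = 0.00660). Rela and Ikbkb rose by 1.12 ± 0.28 and 0.74 ± 0.14 (adjusted p = 0.00881 and 0.00217), and lost the call with the term (adjusted p = 0.246 and 0.0538). Genes of this list thus moved in both directions in the comparison in which Tnfrsf1b and Traf1 rose.

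**Figure D4:**
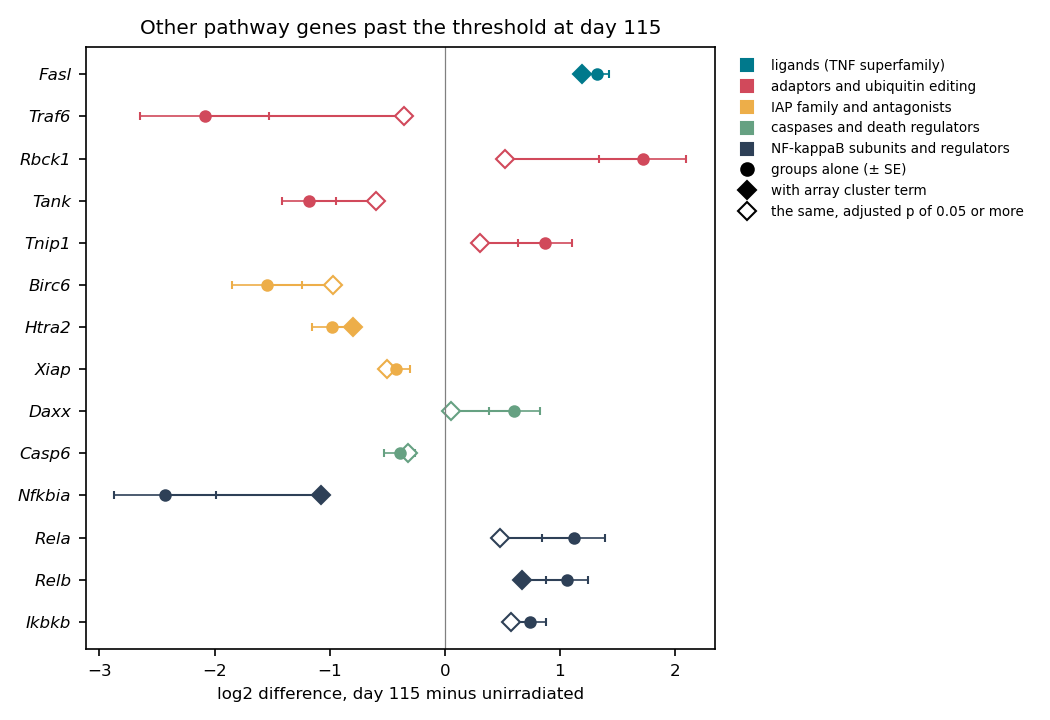
Log2 difference, day 115 minus unirradiated, of the 14 genes of the pathway lists that passed on groups alone and were named by rule (up to 4 per list). Circles with bars give groups alone ± SE, and diamonds give the fit with the array cluster term, open where the adjusted p was 0.05 or more. Fasl, Htra2, Nfkbia and Relb are filled in both.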

How the data were processed

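Gene expression was measured on oligonucleotide arrays in 19 samples. The deposited values are linear signal intensities from 7.68 to 13242.28. The method by which the authors made them was not given in the sources used here. Array medians differed by 0.088 on the log2 scale, under the limit of 0.1, and the values were used as deposited. Groups came from titles (irradiated) and descriptions (unirradiated). The 66 control probe sets were left out. Of the 12422 others, 10833 had 1 symbol in the probe table, 396 several, and 1193 none there; no gene was named from a probe set with several symbols. Probe sets with a mean signal over all arrays above the 30th percentile, 26.4, were tested. With limma 3.58.1 (R 4.3.3), log2(signal + 16) entered 1 model of 4 groups over all arrays, a variance trend and Benjamini-Hochberg adjustment per comparison. Average linkage on 1 minus Pearson's r gave the 2 array clusters.

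All members were named, with the probe set of highest mean signal standing for a gene in counts of genes. Per pathway list and comparison, up to 4 genes with the largest difference past the threshold were selected. So were the 3 genes most correlated with each member called both ways. The text gives the selected list genes mainly in the comparisons with the unirradiated group. The members and lists were chosen with earlier results of these data known. Promoters are RefSeq's, build GRCm38.p6. On data simulated for day 115 against the unirradiated group (8695 probe sets, 100 changed per size), the fit recovered 83 of the changes of log2 size 1 and 95 of size 2. The simulated noise was independent between arrays and held no array clusters. These counts therefore cannot show how the fit performs where the groups lie in different clusters, as they do in this comparison. Alternatives covered the pseudocount, filter, normalisation, replicate number, array cluster and left-out arrays. Depth does not apply to arrays, and their number limits the precision.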

Additional observations from a re-analysis of the deposited data

How the results depend on the processing

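The number of member genes called on groups alone was 0 for day 5, 1 for day 40 and 3 for day 115 against the unirradiated group, 1 for day 40 and 2 for day 115 against day 5, and 0 for day 115 against day 40. With the array cluster term the day-40 and day-115 counts against the unirradiated group became 2 and 1, and that of day 40 against day 5 became 4. Within array cluster 2 the day-40 counts were 2 against the unirradiated group and 3 against day 5, and within array cluster 1 they were 0 for day 40 and 1 for day 115 against day 5. With the replicate block, the number of day 5 against the unirradiated group was 1 (Cd27, adjusted p = 0.0403 and 0.0330 in its 2 probe sets), that of day 40 against it was 2 (Traf1 added, adjusted p = 0.0210), and those against day 5 were 0 for day 40 (Tnfrsf1b not called, 0.62, adjusted p = 0.110) and 1 for day 115 (Traf1 not called, 0.76, adjusted p = 0.141). The replicate numbers gave no pairing: 9 of 21 same-numbered pairs correlated above 0.1, from -0.656 to 0.753. For day 115 against day 40 the count was 1, Tnfrsf1b, with a pseudocount of 64, without the filter, and after quantile normalisation or median centring. Leaving out 1 array in turn gave 0 members throughout for day 5, 0 to 1 for day 40 and 2 to 4 for day 115 against the unirradiated group, 0 to 2 and 2 to 4 against day 5, and 0 to 1 for day 115 against day 40. The counts changed without unirradiated array 3, day-5 array 1, 2 or 3, day-40 array 1 or 4, or day-115 array 1, 2 or 3. Without day-115 array 2, Cd27 was not called at day 115 (0.92, adjusted p = 0.0758). Birc2 161883_f_at was called against the unirradiated group without day-115 array 1 (adjusted p = 0.0377) or 3 (0.0406). Of the 72 member results, 7 were called on groups alone, and no recomputed value turned the direction of a called member. Most of the 1386 recomputed values belong to results that were not called, and 92 of them changed sign. The cause of these changes in calls, counts and signs was not tested. Testing the controls too changed no member's call. The 3 day-115 arrays, all in array cluster 1, and signals near the filter in Fas and Tnfrsf9 limit what can be called.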

Other observations

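Values of ligand genes are given here beside those of the member that binds them. Fasl differed by 1.51 ± 0.10 between day 40 and the unirradiated group (limma, adjusted p = 9.53e-08), while its receptor gene Fas, in a probe set under the filter that was not tested, read 24.3 ± 2.70 and 24.7 ± 2.61 in those groups. Tnfrsf1b differed by 1.45 ± 0.15 at day 115 (limma, adjusted p = 8.86e-06), while its ligand gene Tnf read 54.1 ± 4.10 at day 115 and 64.2 ± 7.06 in the unirradiated group. Another ligand gene, Lta, read 104.6 ± 5.90 and 91.2 ± 20.7 in the same order. Among ligands that pair with the other members, Tnfsf9 (ligand of CD137) read 54.2 ± 5.28 in the unirradiated group and 51.8 ± 9.47 at day 115. Tnfsf4 (ligand of OX40) lay under the filter, at 13.6 ± 0.701 and 14.1 ± 1.15. The difference between a receptor and its ligand was not tested.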
